A study of Arabidopsis thaliana with 2 samples.

Results

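The genes described here carry the first steps of sulfate assimilation in Arabidopsis thaliana: sulfate transport, activation of sulfate by ATP sulfurylase and its reduction by APS reductase. They were chosen by gene identifier from a list of 11, and 7 of these were among the 6791 rows of the deposited table. The list named 10 genes: APR1, APR2, APR3, APS1, APS3, APS4, SULTR1;2, SULTR2;1, SULTR4;1 and SULTR4;2. The eleventh identifier, AT4G13550, is annotated in TAIR10.1 as a putative triglyceride lipase, carries no sulfate gene name and was not in the table, so it is not treated as a gene of sulfate assimilation below. APS1, APS4 and SULTR2;1 were not in the table either, and their levels were not analysed here.

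The study compared ago1-27 plants, which carry a weak allele of ARGONAUTE1 (AGO1), with wild-type plants. AGO1 is the protein that loads most plant microRNAs. Both genotypes were grown in soil at 20 °C in days of 16 h of light, and the labels call the tissue of both flower buds. The labels speak of 3 biological replicates for each genotype, but the table gave 1 RPKM value per genotype, that is reads scaled to transcript length and library size. No difference below therefore has an SD, a p-value or a replicate check. Intervals are exact (Clopper-Pearson) 95% intervals on the ratio of estimated reads at the depth of 1 average library, and they include counting error but no variation between plants.

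The rows had been selected for a difference, with 4711 rows higher and 2080 lower in ago1-27. The lowest ratio of ago1-27 over wild type above 1 was 1.50005. The highest below 1 was 0.912, and the next highest was 0.6659. Shares and medians of all rows below therefore describe rows already selected for a difference, not all transcripts. A gene missing from the table may have failed that selection, so its absence does not show that it was undetected. The library sizes read from the steps of low values lay between 11407616 and 12294210 reads for ago1-27 and between 10453032 and 13887069 for wild type. AGO1 itself was at 175 RPKM in ago1-27 and 53.1 RPKM in wild type. The allele keeps the transcript, so that value does not check the genotype labels. Of 9 flower identity genes, 3 were in the table, at a sum of 8.13 RPKM in ago1-27 and 12.7 RPKM in wild type. SEP4, which makes up most of that sum, was at 6.22 RPKM in ago1-27 and 12.5 RPKM in wild type. The other 2 had higher values in ago1-27, from few reads. AP1 was at 0.733 RPKM in ago1-27 and 0.0779 RPKM in wild type, an estimated 11 reads and 1 read. LFY was at 1.17 RPKM in ago1-27 and 0.151 RPKM in wild type, an estimated 18 and 2 reads. Of 3 leaf genes, 2 were in the table, at a sum of 3415 RPKM in ago1-27 and 5416 RPKM in wild type, nearly all of it RCA, the Rubisco activase, at 3390 RPKM in ago1-27 and 5341 RPKM in wild type. LHCB1.1, a light-harvesting protein, was at 25.3 RPKM in ago1-27 and 74.5 RPKM in wild type, 2.94-fold lower and past the threshold used below. Both seed markers were in the table, at a sum of 10.9 RPKM in ago1-27 and 1.505 RPKM in wild type, and neither root marker was. SESA1 was at 2.57 RPKM in ago1-27 and 0.130 RPKM in wild type, an estimated 22 reads and 1 read. CRA1 was at 8.34 RPKM in ago1-27 and 1.37 RPKM in wild type, an estimated 173 and 28 reads. Both were past the threshold upwards, where 11.3% of rows compared were. By level, RCA held rank 1 of 6791 in wild type and rank 4 in ago1-27. This rank and the low AP1 and LFY values in wild type do not bear out the label of flower buds. Flower genes missing from the table give no level, so the tissue was not settled here. The part of tissue makeup in the results below was not tested, and in bulk RNA fewer cells of a type and less RNA per cell cannot be told apart.

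Plants take up sulfate through SULTR transporters of the plasma membrane and store it in the vacuole, from which the SULTR4 transporters release it. ATP sulfurylase (APS) couples sulfate to ATP to give adenosine 5′-phosphosulfate, which APS reductase (APR) reduces to sulfite in plastids with glutathione as the electron donor. Sulfite is reduced further to sulfide and built into cysteine. The reductase step is a main control point of the pathway, and its transcripts are known to increase when sulfate runs short. The microRNA miR395 is itself induced by sulfate limitation, and APS1, APS3, APS4 and SULTR2;1 are its targets.

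The microRNA and its sites are shown because 1 of the 4 targets, APS3, was in the table. The 6 annotated MIR395 loci on chromosome 1 give 2 mature forms of 21 bases, each from 3 loci. They differ by A17G, the base of miR395a first, counted from the 5′ end. The seed, bases 2 to 8, is in capitals and is the same in both. The sequences were read from the RefSeq TAIR10.1 genome.
miR395a, also the form of miR395d and miR395e: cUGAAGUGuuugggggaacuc
miR395b, also the form of miR395c and miR395f: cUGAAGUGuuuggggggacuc

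The best ungapped match of miR395 in each target lay in the coding sequence, in the first exon. Capitals mark the 7 bases that lie opposite the seed. Each site is written 5′ to 3′ along the transcript.
APS1, chr3:8113164-8113184, plus strand: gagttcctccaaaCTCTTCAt
APS3, chr4:8414958-8414978, minus strand: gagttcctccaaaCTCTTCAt
APS4, chr5:17591121-17591141, minus strand: gagttcctccaaaCACTTCAt
SULTR2;1, chr5:3193268-3193288, plus strand: aagttctcccaaaCACTTCAa

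These sites had 2 to 3 mismatches to the complement of miR395a, with 1 in the stretch opposite the seed in APS1 and APS3 and 0 there in APS4 and SULTR2;1. The APS1 and APS3 sites have the same letters. The best match in the other 6 named genes had 8 to 9 mismatches. None of the 6 MIR395 precursor genes was in the table, so the level of the microRNA itself was not analysed here.

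The 7 genes did not move in 1 direction. The 3 APS reductases, the ATP sulfurylase APS3 and the uptake transporter SULTR1;2 were lower in ago1-27, and the vacuolar transporters SULTR4;1 and SULTR4;2 were higher. A gene counted as past the threshold where log2(RPKM + 1) differed by 1 or more between the genotypes and the larger of its RPKM values was 1 or more. By that rule 4 of the 7 were lower, namely APR1, APR2, APR3 and APS3, and 0 were higher. Of the 6606 rows compared, 10.5% were past the threshold downwards and 11.3% upwards. The median log2 ratio of the 7 genes was -1.46, against 0.62 for all rows compared. The genes were chosen with earlier results of these data known, so these values describe them and test nothing.

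**Figure D1:**
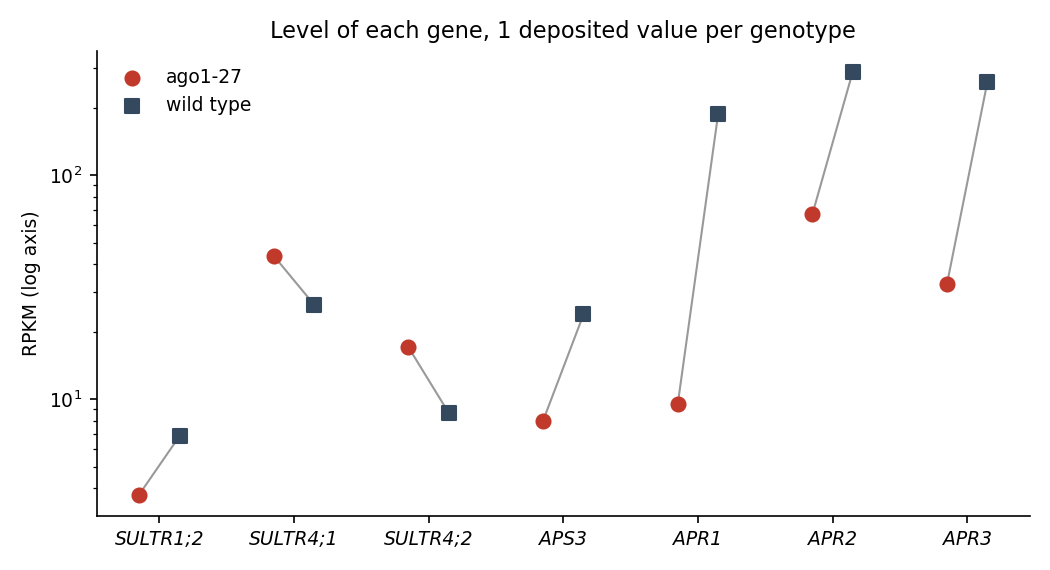
RPKM (log axis) of the 7 genes in the table, with a circle for ago1-27 and a square for wild type, 1 deposited value each. The 3 APS reductases lie between 9.47 and 66.8 RPKM in ago1-27 and between 187 and 289 RPKM in wild type, while SULTR4;1 and SULTR4;2 have the higher value in ago1-27.

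SULTR1;2 encodes a high-affinity transporter best known for sulfate uptake by roots. It lies on chromosome 1 from 29327515 to 29333220 and has 7 annotated transcripts of 2192 to 3185 bases. It was at 3.75 RPKM in ago1-27 and 6.85 RPKM in wild type, both below the medians of all rows, 9.29 RPKM in ago1-27 and 7.11 RPKM in wild type. It was 1.83-fold lower in ago1-27 (1.46 to 2.29), or -0.72 on the log2(RPKM + 1) scale, short of the threshold. It passed downwards after quantile normalization, at -1.04, where 18.4% of rows compared did so, and at -1.30 after the median ratio of all rows was set to 1, where 1970 of 6558 rows did. Its values matched whole reads of 1 library in each genotype, as did those of 786 rows in all. The tolerance was 1e-05 reads or 2e-09 of the value, whichever was larger. The length at which they matched, 9877 bases, is none of the annotated ones, so the number of reads behind them cannot be read from the match. At the median annotated length the values amount to about 124 reads in ago1-27 and 224 reads in wild type. The other 6 genes showed no such match, and how many libraries stand behind each value is not stated.

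SULTR4;1 and SULTR4;2 encode transporters of the vacuolar membrane that let stored sulfate out. SULTR4;1 (AT5G13550, chromosome 5, 4355276 to 4359692) was at 43.6 RPKM in ago1-27 and 26.4 RPKM in wild type, 1.65-fold higher in ago1-27 (1.51 to 1.81). SULTR4;2 (AT3G12520, chromosome 3, 3967816 to 3972135) was at 17.0 RPKM in ago1-27 and 8.67 RPKM in wild type, 1.97-fold higher (1.67 to 2.32). Together they reached 60.6 RPKM in ago1-27 and 35.03 RPKM in wild type. SULTR4;1 was the more abundant of the pair in both genotypes, at 2.56 times the level of SULTR4;2 in ago1-27 and 3.04 times in wild type. Neither passed the threshold, with log2(RPKM + 1) ratios of 0.70 for SULTR4;1 and 0.90 for SULTR4;2, against a median of 0.62 for all rows compared. The size of both differences depends on the scale, since setting the median ratio of all rows, 1.62, to 1 left SULTR4;1 at a ratio of 1.02 and SULTR4;2 at 1.21. Their coding sequences are 83.1% identical over the aligned bases, yet 0 stretches of 50 bases, the read length, were shared with another annotated transcript.

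APS3 was the ATP sulfurylase of the list in the table. It lies on chromosome 4 from 8413263 to 8415650 with 2 annotated transcripts of 1917 and 1941 bases. It was at 8.01 RPKM in ago1-27 and 23.9 RPKM in wild type, 2.98-fold lower in ago1-27 (2.51 to 3.53), from an estimated 185 reads in ago1-27 and 545 reads in wild type per library. This was rank 552 of 6791 counted from the lowest ratio. APS2, the ATP sulfurylase outside the list of miR395 targets, was also in the table, at 38.1 RPKM in ago1-27 and 75.5 RPKM in wild type, 1.98-fold lower (1.82 to 2.15). APS2 was thus above APS3 in both genotypes per length of transcript. Its log2(RPKM + 1) ratio was -0.97, just short of the threshold, against -1.46 for APS3. APS3 shared 1 stretch of 50 bases with APS1, of 2009, although the coding sequences are 81.7% identical over the aligned bases.

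APR1, APR2 and APR3 encode the plastid enzymes that reduce activated sulfate to sulfite, each with a reductase domain and a glutaredoxin-like C-terminal domain. All 3 were lower in ago1-27. APR1 (AT4G04610, chromosome 4, 2324878 to 2327064) was at 9.47 RPKM in ago1-27 and 187 RPKM in wild type, 19.7-fold lower (17.2 to 22.7). APR3 (AT4G21990, chromosome 4, 11657008 to 11659167) was at 32.6 RPKM in ago1-27 and 259 RPKM in wild type, 7.95-fold lower (7.33 to 8.63). APR2 (AT1G62180, chromosome 1, 22975530 to 22977885), the isoform known for most of the reductase activity in leaves, was at 66.8 RPKM in ago1-27 and 289 RPKM in wild type, 4.32-fold lower (4.08 to 4.58). The 3 counting intervals did not overlap, but they leave out variation between plants, so a difference between the reductases was not tested.

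The reductases stood close together near the top of the wild-type table and far apart in ago1-27. By level, APR2, APR3 and APR1 held ranks 422, 1056 and 3356 of 6791 in ago1-27, against ranks 65, 74 and 115 in wild type. APR2 was at 7.05 times the level of APR1 in ago1-27 and 1.55 times in wild type. APR3 was at 3.44 times the level of APR1 in ago1-27 and 1.39 times in wild type. Summed over the 3 genes, the level was 109 RPKM in ago1-27 and 734 RPKM in wild type, 6.75-fold lower in ago1-27. APR2 made up 61.3% of that sum in ago1-27 and 39.3% in wild type. APR1 made up 8.70% in ago1-27 and 25.4% in wild type, and APR3 29.97% in ago1-27 and 35.3% in wild type.

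**Figure D2:**
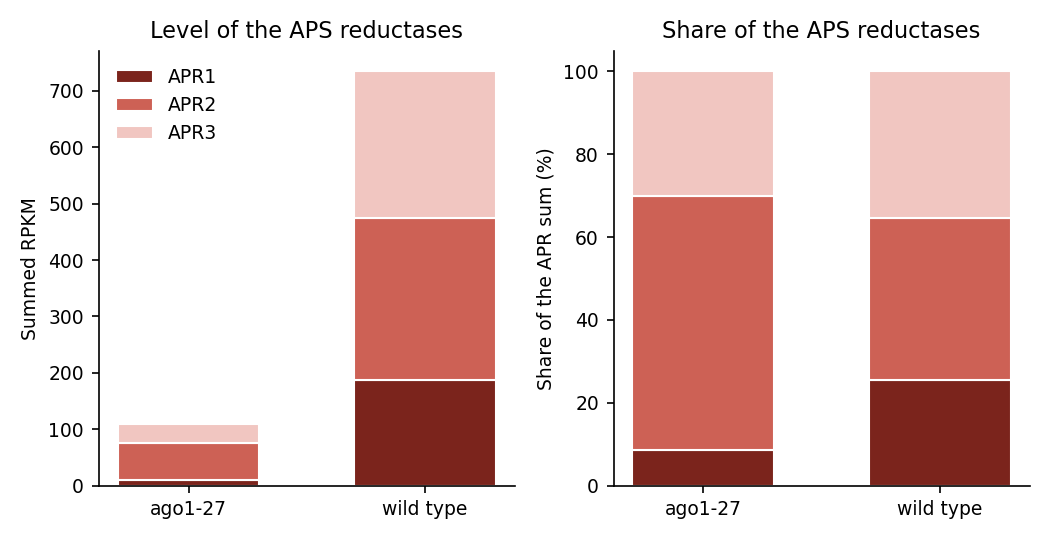
Summed RPKM of APR1, APR2 and APR3 (left) and the share of each in that sum in percent (right), with ago1-27 as the left bar and wild type as the right bar of each panel. The sum is 109 RPKM in ago1-27 and 734 RPKM in wild type, and APR2 takes 61.3% of it in ago1-27 and 39.3% in wild type.

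Of the reductases, APR2 alone shared whole stretches of 50 bases with other annotated genes. The coding sequences of APR1 and APR3 are 81.8% identical over the aligned bases, and those of APR2 are 75.7% identical to APR1 and 74.8% to APR3. APR1 and APR3 shared 0 stretches of 50 bases with any other annotated gene. Of the 2038 such stretches of APR2, 44.2% also occurred in AT1G08477, a long non-coding RNA, or AT1G62170, a serpin family gene, both annotated on the opposite strand and overlapping APR2. The libraries did not keep strand, so reads of these overlapping genes cannot be told apart from those of APR2. AT1G62170 was in the table, at 3.16 RPKM in ago1-27 and 16.8 RPKM in wild type, 5.31-fold lower in ago1-27. AT4G04614, which overlaps 21 exon bases of APR1 on the opposite strand, was at 22.0 RPKM in ago1-27 and 13.2 RPKM in wild type, the opposite direction to APR1. AT4G21980, which overlaps 27 exon bases of APR3 on the opposite strand, was not in the table.

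**Figure D3:**
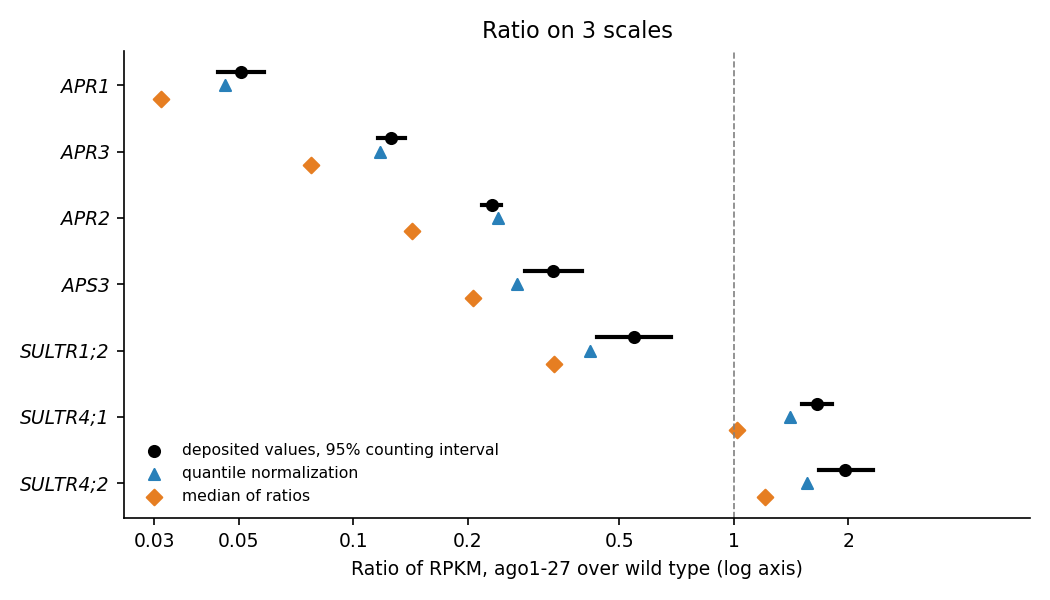
Ratio of RPKM in ago1-27 over wild type (log axis) for the 7 genes, as deposited with 95% counting intervals, after quantile normalization and after setting the median ratio of all rows to 1. The 3 reductases, APS3 and SULTR1;2 lie below 1 on all 3 scales, and SULTR4;1 and SULTR4;2 lie at 1.02 and 1.21 on the median scale.

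The 250 bases before the annotated start and 50 after it were searched for GAGAC, the core of the sulfur-responsive element, and CACGTG, the G-box. Neither motif contains the other. On either strand, 0 of the 11 listed genes held GAGAC and 0 held CACGTG. Among all 27443 protein-coding genes, 32.8% of such windows held GAGAC and 7.68% held CACGTG. This says only that these letters are not in the windows searched.

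Of 36 further genes in a list of sulfate assimilation, 9 were in the table and 27 were not. This list was chosen with earlier results of these data known, so its counts are a description only. Of the 9, 8 had a lower value in ago1-27 and 1 a higher one, against 2080 lower among all 6791 rows. Past the threshold 2 were lower and 0 higher, against 10.5% and 11.3% of all rows compared, and the median log2 ratio of the 9 was -0.75, against 0.62 for all rows compared. Both that passed were APS kinases, which turn the product of ATP sulfurylase to the sulfation of secondary compounds such as glucosinolates. APK2 was at 16.2 RPKM in ago1-27 and 65.5 RPKM in wild type, 4.04-fold lower (3.54 to 4.64). APK1 was at 15.8 RPKM in ago1-27 and 44.02 RPKM in wild type, 2.79-fold lower (2.45 to 3.19).

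The other 2 genes listed for that branch that were in the table had lower values in ago1-27 as well. SAL1, a phosphatase that clears the by-product of sulfation, was at 22.5 RPKM in ago1-27 and 38.6 RPKM in wild type. TAAC, listed for that branch under its other name PAPST1, is annotated as a thylakoid carrier of ATP and ADP. It was at 5.79 RPKM in ago1-27 and 8.90 RPKM in wild type. The values of both were whole reads of 1 library in each genotype.

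On the way to cysteine, SERAT2;2, a serine acetyltransferase that makes the carbon acceptor of sulfide, was at 35.1 RPKM in ago1-27 and 66.3 RPKM in wild type. It was 1.89-fold lower in ago1-27 (1.73 to 2.06) and the only gene in the table of 11 listed for cysteine synthesis. DES1, which breaks cysteine down, was at 1.35 RPKM in ago1-27 and 2.71 RPKM in wild type. Among the transporters, SULTR3;2 was at 0.433 RPKM in ago1-27 and 1.32 RPKM in wild type, from an estimated 12 reads in ago1-27 and 36 reads in wild type. SULTR3;3 was the gene of this list with the higher value in ago1-27, at 34.7 RPKM against 19.1 RPKM in wild type, 1.82-fold higher (1.64 to 2.02). The sulfite reductase SIR, the glutathione enzymes GSH1 and GSH2, the uptake transporter SULTR1;1 and the regulator SLIM1 were not among the rows.

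**Figure D4:**
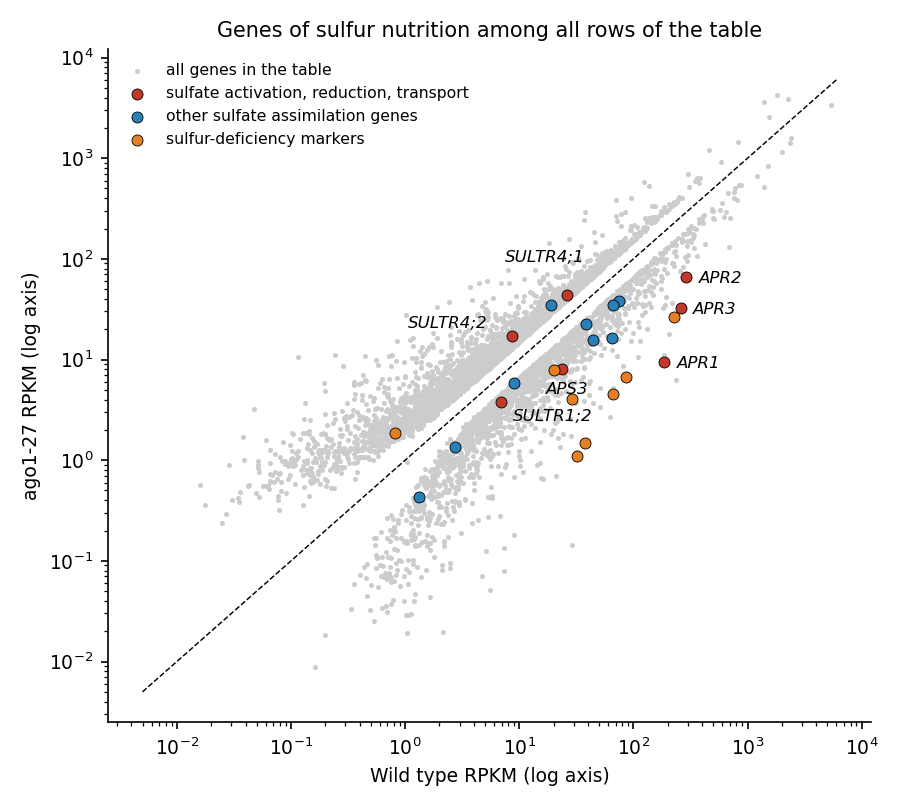
RPKM of all 6791 rows in wild type (horizontal) and ago1-27 (vertical), on log axes, with the 7 genes of sulfate activation, reduction and transport, 9 other assimilation genes and 8 sulfur-deficiency markers in colour. The dashed line marks equal values, and the empty band along it shows that the table holds selected rows. APR1, APR2 and APR3 lie below the band at high wild-type levels.

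Markers of sulfur deficiency, genes that are known to increase when sulfate is scarce, were set beside the reductases. The table held 8 of the 9 listed, and 7 of them were lower in ago1-27 and past the threshold, by 2.54-fold to 29.1-fold, where 10.5% of all rows compared were. Their list had a median log2 ratio of -3.27. It was chosen with earlier results of these data known, so these counts describe the list and are no independent check. SHM7, a serine hydroxymethyltransferase, was at 26.7 RPKM in ago1-27 and 228 RPKM in wild type, close to APR3 in both level and ratio. LSU2, a small protein of the low-sulfur response, was at 6.72 RPKM in ago1-27 and 85.4 RPKM in wild type, 12.7-fold lower (9.91 to 16.6). AT1G04770 was at 4.56 RPKM in ago1-27 and 66.2 RPKM in wild type. SDI1, a sulfur deficiency-induced protein, was at 4.09 RPKM in ago1-27 and 29.1 RPKM in wild type.

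The remaining markers spanned both directions. GGCT2;1, an enzyme of glutathione breakdown, was at 7.92 RPKM in ago1-27 and 20.1 RPKM in wild type, 2.54-fold lower (2.03 to 3.21). LSU1 was at 1.11 RPKM in ago1-27 and 32.3 RPKM in wild type, and LSU3 at 1.48 RPKM in ago1-27 and 37.8 RPKM in wild type. BGLU28, a beta-glucosidase, was the exception, at 1.86 RPKM in ago1-27 and 0.811 RPKM in wild type, 2.29-fold higher (1.27 to 4.17) from an estimated 41 reads in ago1-27 and 18 reads in wild type. The difference between this list and the 7 genes was not tested, since there is 1 value per genotype.

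**Figure D5:**
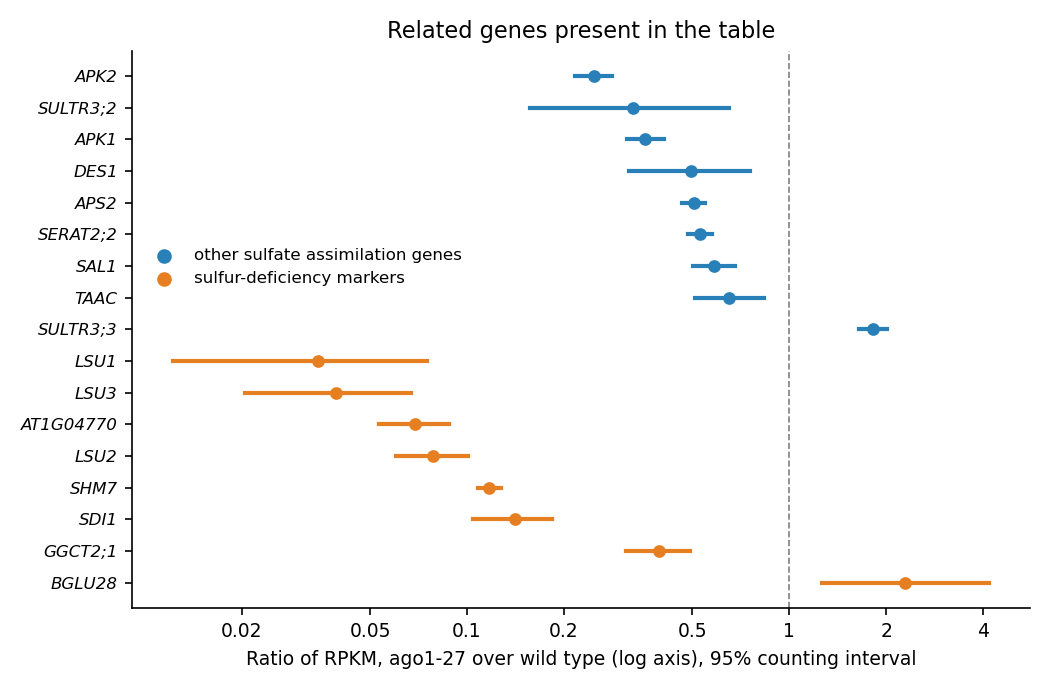
Ratio of RPKM in ago1-27 over wild type (log axis) with 95% counting intervals for the 9 other assimilation genes and the 8 sulfur-deficiency markers in the table, each ordered by ratio. Ratios below 1 mean lower in ago1-27, and SULTR3;3 and BGLU28 are the 2 genes above 1.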

How the data were processed

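The authors sequenced total RNA as 50-nt single-end TruSeq libraries without strand, per the labels' protocols. The submitters' processing notes name TopHat2 2.0.11 and TAIR10. How reads were counted, how replicates were combined and how rows were selected is not given in the sources used here. Deposited values are RPKM, 1 per genotype, and their ratio with wild type below, per the file headers. That ratio equals the quotient of both values within 4.17e-08 of its size.

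Differences were taken as log2(RPKM + 1), which understates the change of low genes. Members and lists were chosen with earlier results of these data known. Genes were named by rule: all listed members, the genes of both lists in the table, AGO1 and the 3 rows nearest to APR1. Tissue markers in the table were named as well. Of the further sulfate assimilation genes missing from the table, only some are named. The overlapping genes AT1G62170, AT4G04614, AT4G21980 and AT1G08477 were added after values were seen. Library sizes were searched between 8000000 and 20000000 reads for totals that make low values whole reads. The code for the search and the threshold was run on simulated reads. These had counting error only and changes larger than the threshold. Such a run checks the code and cannot show how the threshold fares with variation between plants. Reads were estimated from the median TAIR10.1 transcript length and mean library sizes of 11955563 for ago1-27 and 11845532 for wild type. Of the table's identifiers, 6772 were found in TAIR10.1 and 19 were not. Alternatives were pseudocounts of 0.1, 0.5 and none, a minimum RPKM of 5 or none, quantile normalization, the median of ratios and the table without rows of 1 library per genotype. Scripts ran under Python 3.11.15 with scipy 1.17.1, pandas 2.3.3, numpy 2.4.6 and matplotlib 3.10.9.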

Additional observations from a re-analysis of the deposited data

How the results depend on the processing

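No paired analysis was possible because the table has 1 value per genotype and the labels number no replicates. Of the 8 alternatives, only quantile normalization and the median of ratios could change the direction of a gene. Pseudocounts, minimum levels and dropped rows cannot. Under both rescalings the 5 lower and 2 higher genes of the 7 kept their direction. SULTR4;1 was then at a log2 ratio of only 0.03 after the median of ratios. The 4 past the threshold stayed 4 under 6 alternatives and became 5 with SULTR1;2 after rescaling by the median of ratios, where 1970 of 6558 rows passed downwards, and after quantile normalization, where 1212 of 6584 did. The median of the 7 became -2.11 after the median of ratios, -1.75 after quantile normalization and -1.78 without rows of 1 library per genotype, which drops SULTR1;2. Pathway genes past the threshold downwards, 2, became 4 without a pseudocount, 4 after quantile normalization and 8 after the median of ratios. The rows of the whole table that passed downwards rose as well, from 694 of 6606 in the main setting. They were 1017 of 6606 without a pseudocount, 1212 of 6584 after quantile normalization and 1970 of 6558 after the median of ratios. BGLU28 passed upwards with a pseudocount of 0.1 or none, making 1 starvation marker higher, where 20.4% and 21.6% of rows compared passed upwards. Over the whole table, 748 rows higher became 1350 with a pseudocount of 0.1, 1425 without one, 395 after quantile normalization and 219 after the median of ratios. The 694 lower became 1212 after quantile normalization and 1970 after the median of ratios, at which the median log2 ratio of all rows, 0.62 as deposited, was 0.33 and -0.01. The median of ratios presumes that most rows do not differ, which a table of selected rows does not meet.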

Other observations

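The rows of the table nearest to APR1 in log2(RPKM + 1) of both genotypes, by Euclidean distance over these 2 values, were AT2G20670, AT4G22485 and BT5. AT2G20670 was at 11.1 RPKM in ago1-27 and 185 RPKM in wild type, at a distance of 0.21. AT4G22485, annotated in the lipid-transfer and seed storage albumin superfamily, was at 6.25 RPKM in ago1-27 and 237 RPKM in wild type, at a distance of 0.63. BT5, a BTB and TAZ domain protein, was at 10.7 RPKM in ago1-27 and 109 RPKM in wild type, at a distance of 0.78. With 1 value per genotype, such nearness says only that the levels are alike.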
